A study of Mus musculus with 12 samples.

Results

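The elastic fiber and microfibril genes described here are Eln, Fbn1, Mfap5, Fbln1, Fbln2, Fbln5, Ltbp1, Ltbp2, Ltbp3 and Ltbp4, taken by gene name from the table of all genes. All 10 names were found among 43686 rows, on 11 rows, since Ltbp4 has a second row without counts inside the first, and the main row of each gene was among the 17155 rows with enough counts to be tested. The RNA came from the ventricular wall of 6 WT mice and 6 KO mice. WT mice were Sdhaf4fl/fl littermates without Cre, and KO mice were Sdhaf4fl/fl with Ckmm-Cre, in which the promoter of muscle creatine kinase drives Cre in cardiac and skeletal muscle and so removes Sdhaf4, an assembly factor of mitochondrial complex II, there. Both groups therefore carry the floxed allele, and only the KO mice carry Cre. The labels give strain C57BL/6 and 2 months of age and name the KO animals Sdhaf4-/- without the Cre, whereas the main text of the study gives a younger age and its reporting summary names male mice of more than one age, the older of which fits the label. Nothing states whether the hearts of a group came from 1 litter or several.

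Elastic fibers give vessels, valves and the connective tissue of the heart their recoil. Tropoelastin is laid down on a scaffold of fibrillin microfibrils, guided by fibulins and microfibril-associated glycoproteins, and is then cross-linked by lysyl oxidases. The latent TGF-β binding proteins (LTBPs) sit on the same microfibrils, and several of them hold TGF-β there in an inactive form. In the ventricular wall these genes are mostly expressed by fibroblasts, smooth muscle cells and other cells of the stroma, not by cardiomyocytes.

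The libraries held 23747014 to 27159228 counts in WT and 26542930 to 31393393 in KO. Levels are given as CPM, counts relative to the size of the library, scaled with edgeR's TMM factors, which lay between 0.963 and 1.03. Sdhaf4 was 25.2 ± 5.80 CPM in WT (SD, n = 6) and 2.40 ± 0.170 CPM in KO (SD, n = 6), with no overlap. The quasi-likelihood test of edgeR compared the genotypes, p was adjusted over the 17155 rows by the Benjamini-Hochberg method, and a gene was called at an adjusted p under 0.05. Errors of log2 fold changes are standard errors (SE). The median log2 fold change of all rows was 0.00.

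Of the 10 genes, 8 were higher in KO and 0 were lower, while 51.1% of all rows tested were called, 25.6% as higher and 25.5% as lower. The median log2 fold change of the 10 genes was 1.26. With the stricter threshold of the study, an adjusted p under 0.005 and a log2 fold change over 1, 7 of the 10 were called higher and 0 lower, beside 5.36% and 4.87% of all rows. In 7 of the 10 genes every KO heart lay above every WT heart, which was so for 14.9% of all rows, and in 0 of them every KO heart lay below, as in 15.2% of all rows. The rises ran from 1.98-fold for Ltbp4 to 51.0-fold for Ltbp2. Fbln1 and Ltbp1 did not pass the test, with log2 fold changes of 0.02 and -0.05.

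**Figure D1:**
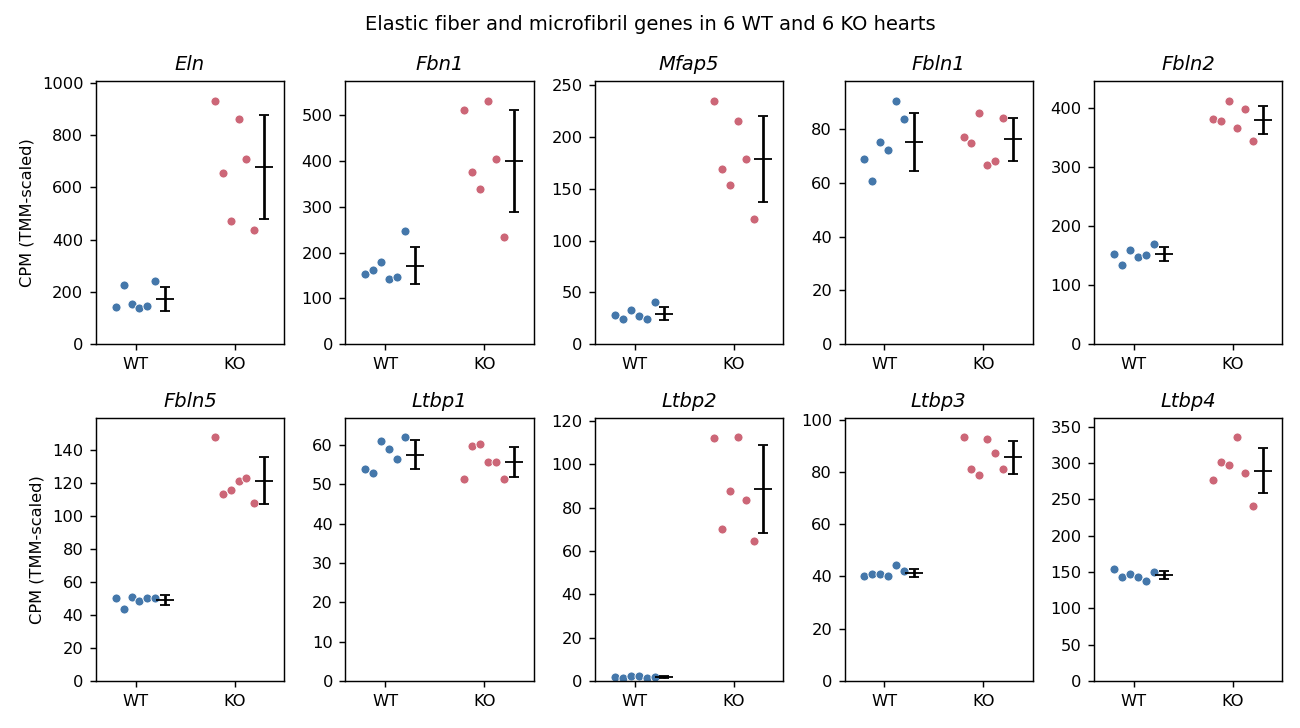
Levels of the 10 genes in each of 6 WT and 6 KO hearts, in CPM on an axis that starts at 0; points are hearts and bars are the mean ± SD. All KO points lie above all WT points for Eln, Mfap5, Fbln2, Fbln5, Ltbp2, Ltbp3 and Ltbp4, Fbn1 overlaps through 1 heart of each genotype, and the WT and KO points of Fbln1 and Ltbp1 share most of their range.

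Elastin and the microfibril backbone rose together. Eln (MGP_C57BL6NJ_G0030594, chromosome 5, 144374271 to 144422375, minus strand, as the table gives it on the C57BL/6NJ assembly) encodes tropoelastin, the monomer of the fiber core. Its lowest, median and highest WT hearts were 137, 151 and 241 CPM. Its KO hearts ranged from 438 to 931 CPM with a median of 681 CPM. No KO heart came near the WT range, and the lowest KO heart, KO 6, still had more than the highest WT heart, WT 6. The rise was 3.88-fold (log2 fold change 1.96, SE 0.23, adjusted p = 2.3e-05), and 1.67% of all rows had a larger log2 fold change.

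Fbn1 (MGP_C57BL6NJ_G0026849, chromosome 2, 132585339 to 132797973, minus strand) encodes fibrillin-1, the main protein of the microfibril. WT hearts had 143, 157 and 248 CPM as lowest, median and highest values. KO hearts had 233, 390 and 532 CPM. The groups overlapped, since KO 6 at 233 CPM was below WT 6 at 248 CPM, and the other KO hearts were above every WT heart. Fbn1 rose 2.32-fold (log2 fold change 1.22, SE 0.20, adjusted p = 0.00038). Its span overlaps Gm9913 on the other strand, which held 538 counts over all 12 libraries.

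Mfap5 (MGP_C57BL6NJ_G0031664, chromosome 6, 128879881 to 128902934, plus strand) encodes a small microfibril-associated glycoprotein that binds fibrillin. Mfap5 had 24.2, 27.6 and 41.0 CPM in WT as lowest, median and highest. In KO it was 121, 174 and 235 CPM, so that the groups stood far apart. The rise of 6.04-fold (log2 fold change 2.59, SE 0.18, adjusted p = 2.1e-07) placed it at rank 143 of the 17155 rows by log2 fold change. The ratio of Mfap5 to Fbn1, 2 microfibril genes measured in the same hearts, was higher in KO by 1.39 on the log2 scale (SE 0.067, exact two-sided permutation test over hearts, p = 0.00216, adjusted p = 0.00298 over the 11 pairs compared here), which is the smallest p that the 924 splits of 6 against 6 hearts allow. The ratio of Eln to Fbn1 was higher by 0.75 (SE 0.12, exact permutation p = 0.00433, adjusted p = 0.00529). Both Eln and Mfap5 thus rose by a larger factor than Fbn1.

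The fibulins split. Fbln2 (MGP_C57BL6NJ_G0031483, chromosome 6, 95216197 to 95279832, plus strand) encodes fibulin-2, which binds tropoelastin and fibrillin. It had 133, 152 and 170 CPM in WT as lowest, median and highest, and 344, 379 and 412 CPM in KO. The hearts of each genotype lay close to each other and the gap between genotypes was wider than either range. It rose 2.49-fold (log2 fold change 1.32, SE 0.06, adjusted p = 6.1e-11), the smallest adjusted p of the 10 genes. Fbln5 (MGP_C57BL6NJ_G0020416, chromosome 12, 106579559 to 106655832, minus strand) encodes fibulin-5, which tethers tropoelastin to microfibrils and to cells. It had 43.4, 50.4 and 50.9 CPM in WT and 108, 119 and 148 CPM in KO. The rise of 2.48-fold (log2 fold change 1.31, SE 0.07, adjusted p = 3.1e-10) was nearly that of Fbln2, and the ratio of Fbln2 to Fbln5 differed between genotypes by 0.01 on the log2 scale (SE 0.070, interval of 2 SE from -0.13 to 0.15, exact permutation p = 0.859, adjusted p = 0.859).

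Fbln1 (MGP_C57BL6NJ_G0022600, chromosome 15, 89294887 to 89388882, plus strand) encodes fibulin-1, a component of elastic fibers and basement membranes that also binds fibronectin. WT hearts had 60.6, 73.6 and 90.5 CPM, and KO hearts had 66.4, 75.9 and 86.0 CPM. The KO hearts all lay within the WT range. The log2 fold change of 0.02 (SE 0.09, adjusted p = 0.882) had an interval of 2 SE from -0.16 to 0.20, so changes of the size of Fbln2 or Fbln5 lay outside it. Fbln1 fell relative to both other fibulins, by 1.30 against Fbln2 (SE 0.096) and by 1.28 against Fbln5 (SE 0.12) on the log2 scale, each with an exact permutation p = 0.00216 (adjusted p = 0.00298).

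The LTBPs showed the widest spread within a family. Ltbp2 (MGP_C57BL6NJ_G0020334, chromosome 12, 87988863 to 88085753, minus strand) encodes the LTBP that does not bind latent TGF-β and associates with fibrillin and fibulin-5. It was very low in WT, where 31 to 55 counts per library gave 1.12, 1.87 and 2.16 CPM as lowest, median and highest. In KO 1791 to 3492 counts gave 64.6, 85.7 and 113 CPM. Every KO heart exceeded every WT heart many times over. The rise of 51.0-fold (log2 fold change 5.67, SE 0.20, adjusted p = 2.3e-10) was the largest of the 10 genes and rank 13 of all rows tested. Its span overlaps D030025P21Rik on the other strand, which held 149 counts over all 12 libraries.

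Ltbp1 (MGP_C57BL6NJ_G0024437, chromosome 17, 80480081 to 80894001, plus strand) encodes the LTBP that anchors latent TGF-β in the matrix of many tissues. WT hearts had 52.8, 57.9 and 62.0 CPM and KO hearts 51.4, 55.6 and 60.2 CPM. The ranges lay almost on top of each other. The log2 fold change was -0.05 (SE 0.06, interval of 2 SE from -0.16 to 0.07, adjusted p = 0.499). The ratio of Ltbp1 to Ltbp2 fell by 5.71 on the log2 scale (SE 0.20, exact permutation p = 0.00216, adjusted p = 0.00298), from a mean of 5.07 in WT, where Ltbp1 had far more counts, to -0.64 in KO, where Ltbp2 had more.

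The stretches of 250 bases before the transcription starts of Ltbp2 and Ltbp1 are shown because these genes mark the opposite ends of the family. They are RefSeq sequences on GRCm38.p6, another assembly than that of the table, printed 5′ to 3′ on the strand of the gene. Capitals mark matches on either strand to GGGCGG (GC box) or CAGACA (SMAD element, which reads TGTCTG on the other strand).
Ltbp2, chr12:84876492-84876741, minus strand: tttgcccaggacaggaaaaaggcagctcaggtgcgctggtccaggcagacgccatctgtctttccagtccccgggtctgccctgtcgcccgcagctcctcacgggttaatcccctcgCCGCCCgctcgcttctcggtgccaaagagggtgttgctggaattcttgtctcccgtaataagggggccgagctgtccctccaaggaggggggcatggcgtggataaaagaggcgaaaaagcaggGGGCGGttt
Ltbp1, first start, chr17:75005279-75005528, plus strand: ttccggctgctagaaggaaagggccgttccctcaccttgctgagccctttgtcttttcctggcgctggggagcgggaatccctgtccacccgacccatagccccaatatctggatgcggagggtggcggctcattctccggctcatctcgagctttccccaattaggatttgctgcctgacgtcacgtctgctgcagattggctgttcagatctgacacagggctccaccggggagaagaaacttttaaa
Ltbp1, second start, chr17:75178531-75178780, plus strand: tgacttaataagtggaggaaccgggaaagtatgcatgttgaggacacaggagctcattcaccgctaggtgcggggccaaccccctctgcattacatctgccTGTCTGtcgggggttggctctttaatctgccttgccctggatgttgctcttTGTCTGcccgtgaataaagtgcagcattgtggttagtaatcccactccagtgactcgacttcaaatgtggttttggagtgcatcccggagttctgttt
The Ltbp2 window held 2 matches to the GC box and 0 to the SMAD element, the first Ltbp1 window held neither, and the second held 2 matches to the SMAD element. The GC box is found in 32.7% and the SMAD element in 17.1% of the 32851 promoter windows of this length in the mouse annotation, so such matches are common. The TATA box (TATAAA), the AP-1 site (TGANTCA) and the TEAD site (CATTCC) were found in 0 of the 13 windows of the 8 genes with an entry, Fbn1, Fbln1, Fbln2, Fbln5 and the LTBPs, and are found in 12.4%, 6.75% and 12.6% of all windows. GC content was 61.6% in the Ltbp2 window, 56.8% and 50.8% in the Ltbp1 windows and 52.4% at the median of all windows. These letter matches describe the windows and show no binding, and no match says only that the letters are not within these 250 bases.

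Ltbp3 (MGP_C57BL6NJ_G0025140, chromosome 19, 2799915 to 2815621, plus strand) and Ltbp4 moved alike. Ltbp3, which helps to secrete and store latent TGF-β, had 40.2, 40.8 and 44.3 CPM in WT and 78.7, 84.1 and 93.2 CPM in KO as lowest, median and highest. It rose 2.07-fold (log2 fold change 1.05, SE 0.05, adjusted p = 1.8e-10). Ltbp4 (MGP_C57BL6NJ_G0032355, chromosome 7, 26798898 to 26831554, minus strand), which works with fibulin-5 in the assembly of elastin, had 137, 146 and 154 CPM in WT and 241, 292 and 336 CPM in KO. Neither gene showed any overlap of the genotypes. Ltbp4 rose 1.98-fold (log2 fold change 0.99, SE 0.07, adjusted p = 3.1e-09) and was the called gene that the log2 fold change of 1 in the stricter threshold left out. The ratio of Ltbp3 to Ltbp4 differed between genotypes by 0.06 (SE 0.077, interval of 2 SE from -0.09 to 0.22, exact permutation p = 0.431, adjusted p = 0.474). Against Ltbp1 the ratios did differ, with Ltbp1 falling by 1.10 relative to Ltbp3 (SE 0.084) and by 1.03 relative to Ltbp4 (SE 0.067), and Ltbp2 rose relative to Ltbp3 by 4.62 (SE 0.20) and relative to Ltbp4 by 4.68 (SE 0.18), each with an exact permutation p = 0.00216 (adjusted p = 0.00298).

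Levels can be compared between genes only per length, for which the deposited FPKM values (fragments relative to the length of the gene and the size of the library) were used. In WT the order of the mean FPKM was Fbln2 at 96.5, Eln at 63.8, Ltbp4 at 48.9, Fbln1 at 35.5, Mfap5 at 32.6, Fbn1 at 21.7, Ltbp1 at 13.8, Ltbp3 at 11.2, Fbln5 at 8.40 and Ltbp2 at 0.468. The ranges of the hearts overlapped for the neighbours Fbln2 and Eln, Eln and Ltbp4, Fbln1 and Mfap5, and Mfap5 and Fbn1, and were separate for the others. Within single hearts Fbln1 exceeded Mfap5 in 4 of 6 and Eln exceeded Ltbp4 in 5 of 6. The elastin core and Fbln2 thus headed the list, and Ltbp2 stood far below all others.

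In KO the order of the mean FPKM was Eln at 248, Fbln2 at 241, Mfap5 at 197, Ltbp4 at 97.2, Fbn1 at 50.7, Fbln1 at 36.0, Ltbp2 at 23.9, Ltbp3 at 23.2, Fbln5 at 20.9 and Ltbp1 at 13.4. With the deposited FPKM, Eln, Fbln2 and Mfap5 could not be put in order beyond the spread of the hearts. Eln exceeded Fbln2 in 3 of 6 hearts and Fbln2 exceeded Mfap5 in 4 of 6. Ltbp2, Ltbp3 and Fbln5 also overlapped. So did Fbn1 and Fbln1, where Fbn1 exceeded Fbln1 in 5 of 6 hearts. Ltbp2 moved from a level above 10.2% of the rows tested to one above 76.3%, and Eln from 90.5% to 97.7%. The deposited FPKM imply other gene lengths than the length column of the same table for 8 of the 10 genes, all but Fbln5 and Ltbp3, so the order is uncertain: with that column Eln came before Fbln2 in WT (45.4 against 31.8), Fbn1 before Mfap5 (14.4 against 11.9), and Ltbp2 in KO (13.1) came after Ltbp3 (23.2) and Fbln5 (20.9). Fbln1 in KO (20.8) then also came after Ltbp3 and Fbln5. The KO means of Eln, Fbln2 and Mfap5 were 177, 79.3 and 72.1 with that column. The closeness of Eln to Fbln2 and Mfap5 in KO thus rests on the deposited lengths.

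**Figure D2:**
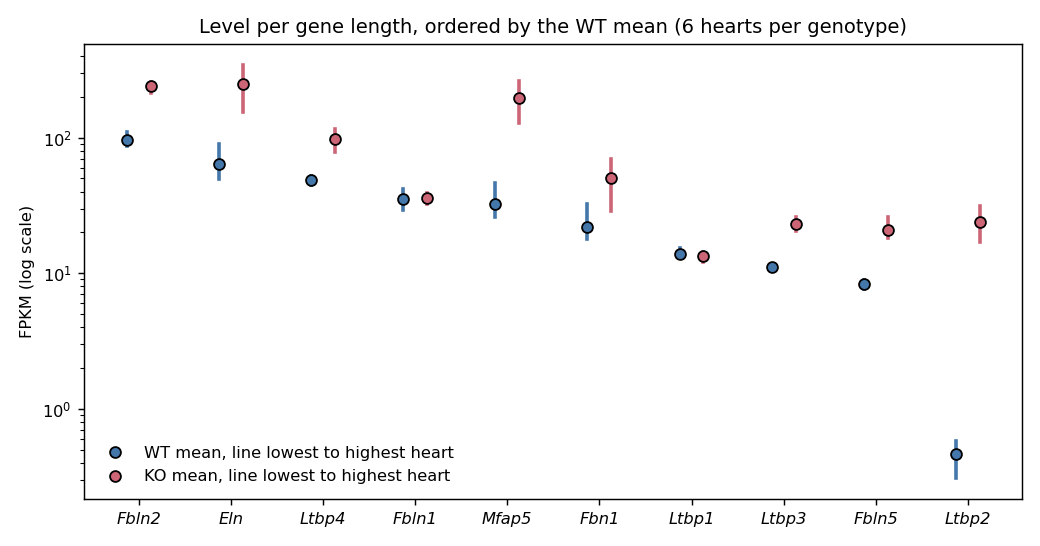
Mean FPKM of the 10 genes on a log axis, ordered by the WT mean, with lines from the lowest to the highest of 6 hearts per genotype. Ltbp2 is the lowest gene in WT at 0.468 and lies at 23.9 in KO, close to Ltbp3 and Fbln5, while the means of Fbln1 and of Ltbp1 nearly coincide in WT and KO.

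The make-up of both families differed between genotypes. The summed FPKM of the LTBPs was 74.4 ± 3.02 in WT and 158 ± 18.5 in KO (SD, n = 6 each). Ltbp4 held most of it in both, with 65.7% ± 1.40 in WT and 61.6% ± 2.25 in KO. The share of Ltbp2 went from 0.627% ± 0.146 to 15.0% ± 2.43, while that of Ltbp1 went from 18.6% ± 1.00 to 8.55% ± 0.826. Ltbp3 held 15.1% and 14.8%. The shares of Ltbp1 and of Ltbp2 did not overlap between genotypes.

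The summed FPKM of Fbln1, Fbln2 and Fbln5 was 140 ± 12.2 in WT and 297 ± 15.5 in KO. Fbln2 held 68.7% ± 1.97 of it in WT and 80.8% ± 1.34 in KO, and Fbln1 25.3% ± 2.08 and 12.1% ± 1.34. With the length column the shares of Fbln1 were 33.8% and 17.2%, those of Fbln5 were 13.8% and 17.3%, those of Ltbp2 were 0.543% and 13.3%, and those of Ltbp3 were 23.7% and 23.6%, above Ltbp1 in WT (18.3%). The sum over all 10 genes was 333 ± 38.3 FPKM in WT and 952 ± 166 in KO, in which Mfap5 made up 9.71% and 20.5%.

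**Figure D3:**
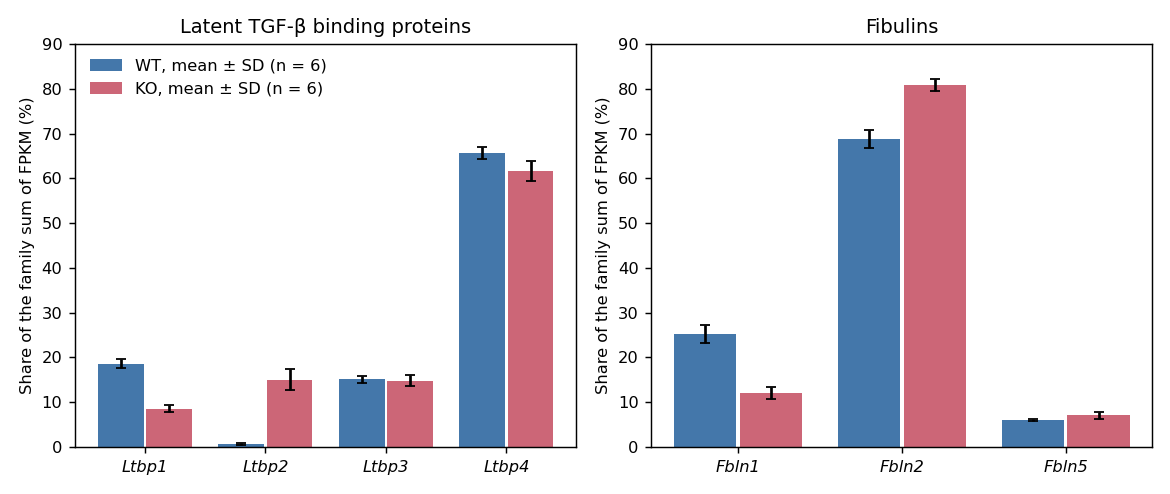
Share of each gene in the summed FPKM of the genes in its panel (percent), as mean ± SD of 6 WT and 6 KO hearts. The LTBPs are on the left, and the fibulin genes Fbln1, Fbln2 and Fbln5 on the right. Ltbp2 has 0.627% in WT and 15.0% in KO, Ltbp1 and Fbln1 have smaller shares in KO, and Ltbp4 and Fbln2 hold the largest share in both genotypes.

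The hearts of 1 genotype did not vary alike in all genes. In both genotypes the SD was 22.9% to 29.4% of the mean for Eln and Fbn1 and 21.6% to 24.8% for Mfap5 and Ltbp2. Fbln2, Ltbp3 and Ltbp4 varied less, from 3.74% for Ltbp3 in WT to 10.7% for Ltbp4 in KO. Eln, Fbn1, Mfap5 and Ltbp2 were thus among the genes that rose and also varied most between hearts of 1 genotype.

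The same hearts stood at the ends for several genes. KO 6 was the lowest KO heart in 7 of the 8 genes that rose and among the lowest 2 in all 8, with a mean deviation of -0.36 from the KO mean on the log2 scale. KO 1 and KO 4 were among the highest 2 in 6 of the 8 genes each, with mean deviations of 0.26 and 0.23. In WT, heart WT 6 was above the WT mean in 8 of 8 genes, with a mean deviation of 0.25. WT 6 also had the lowest Sdhaf4 level of the WT hearts, 14.3 CPM against 24.1 to 30.3 CPM in the other WT hearts, and without WT 6 the same 8 genes were called, with log2 fold changes of 2.07 for Eln and 1.35 for Fbn1. The summed level of the markers of activated fibroblasts in the KO hearts had the same ends. It was 417 CPM in KO 6 and 921 and 840 CPM in KO 1 and KO 4. In WT the sum did not, with WT 6 at 168 CPM, near the WT median of 169 CPM. WT 2 had the highest WT sum, 205 CPM. Acta2 had the highest mean of these markers in WT, 104 CPM, and was lower in KO. Among single markers, WT 6 was the highest WT heart for Postn (57.3 CPM), Meox1 (16.0 CPM) and Fap (7.76 CPM). WT 2 was highest for Acta2 (138 CPM), and other WT hearts were highest for Comp and Cthrc1. The part of these markers in the deviations was not tested.

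**Figure D4:**
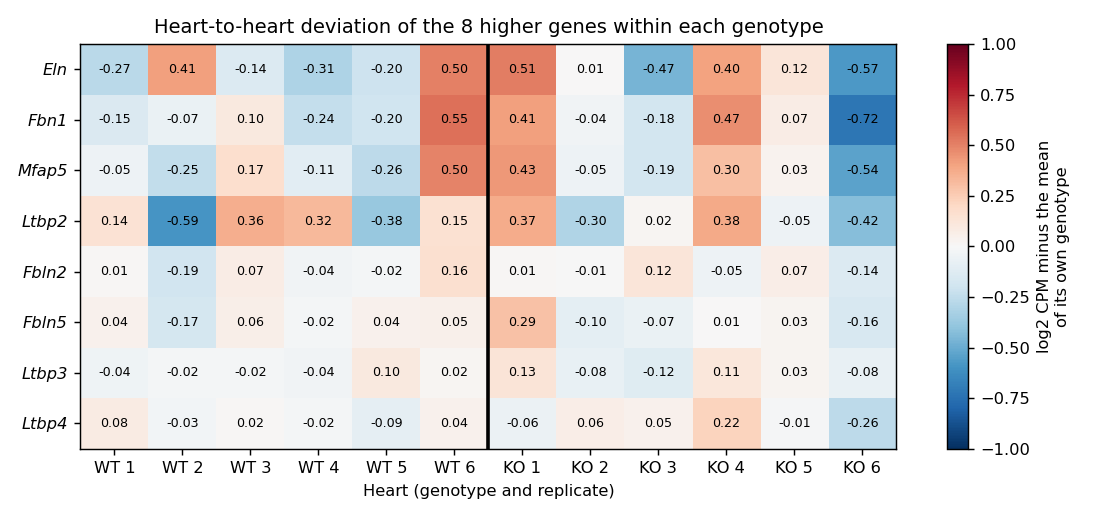
Deviation of each heart from the mean of its own genotype (log2 CPM, color and printed value) for the 8 genes that were higher in KO; the line divides WT from KO hearts. KO 6 is below the KO mean in all 8 genes, down to -0.72 for Fbn1, and WT 6 is above the WT mean in all 8, most for Fbn1 at 0.55.

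Other genes of the elastic fiber were taken from 5 lists with 59 entries. The counts of these lists, and of the marker lists further on, stand beside the shares over all rows tested. Of all rows, 25.6% were called higher and 25.5% lower. Every KO heart lay above every WT heart in 14.9% and below in 15.2%. Of 25 other genes of fibers and microfibrils, 23 could be tested, 17 were higher and 3 lower, with a median log2 fold change of 0.73. Bgn, the small proteoglycan biglycan, which binds tropoelastin and microfibrils, rose from 168 to 662 CPM at the median (log2 fold change 2.03, SE 0.09, adjusted p = 3.2e-11). Adamtsl2, a secreted protein that binds fibrillin and LTBPs, rose from 19.8 to 194 CPM at the median (log2 fold change 3.18, SE 0.16). Mfap4, another microfibril-associated protein, rose from 17.3 to 130 CPM at the median (log2 fold change 2.81, SE 0.21), but its span overlaps Mapk7 on the other strand.

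A few genes of this list were lower. Efemp1, which encodes fibulin-3, had 3.58 to 5.96 CPM in WT and 0.275 to 0.960 CPM in KO, with 29 counts at most in a KO library. The log2 fold change was -3.52 (SE 0.26, adjusted p = 1.0e-08), opposite in sign to those of Fbln2 and Fbln5. Efemp2, which encodes fibulin-4, was higher instead (log2 fold change 0.81, SE 0.11, adjusted p = 1.6e-05), without overlap. Emilin2, an elastin microfibril interfacer, fell from 41.8 to 14.7 CPM at the median (log2 fold change -1.51, SE 0.14), and Adamtsl4, which binds fibrillin, fell by 0.40 on the log2 scale (SE 0.10, adjusted p = 0.0032) with overlap.

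All 5 lysyl oxidase genes, whose enzymes cross-link elastin and collagen, were higher, beside 25.6% of all rows, with a median log2 fold change of 1.34. In 3 of them, Lox, Loxl3 and Loxl1, every KO heart lay above every WT heart, beside 14.9% of all rows. Lox rose 4.51-fold, from 23.9 to 101 CPM at the median (log2 fold change 2.17, SE 0.12, adjusted p = 2.5e-09). Loxl1, which is needed to maintain elastic fibers, rose 2.54-fold, from 38.9 to 103 CPM at the median (log2 fold change 1.34, SE 0.14, adjusted p = 4.1e-06). Loxl3 rose 4.13-fold, but its span overlaps the highly counted Htra2 on the other strand, and the counting is not stated to use strand.

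Among 11 elastin-degrading enzymes 7 were tested, 4 were higher and 1 lower, with a median log2 fold change of 0.96. Mmp14, a membrane-bound metalloproteinase, had a log2 fold change of 0.96 (SE 0.10, adjusted p = 1.9e-06). Mmp2, which Mmp14 activates, had 1.42 (SE 0.21, adjusted p = 0.00016), and the elastase cathepsin K, from Ctsk, 1.22 (SE 0.15, adjusted p = 9.4e-06). Ctsl, another lysosomal cathepsin, was the lower one at -0.26 (SE 0.06, adjusted p = 0.0026). Ctss, which encodes cathepsin S, was the remaining higher one, at 0.44 (SE 0.17, adjusted p = 0.042) with overlap. Mmp9 and Mmp12 did not pass the test, and Elane, Prtn3, Ctsg and Mmp7 had at most 4 counts in any library.

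Of 14 genes for latent TGF-β and its activation, 11 were higher and 1 lower, with a median log2 fold change of 0.43. The ligand Tgfb2 rose from 10.9 to 38.7 CPM at the median (log2 fold change 1.91, SE 0.14, adjusted p = 8.0e-08). Itgb3, an integrin chain that binds the latent form, had a log2 fold change of 2.00 (SE 0.17, adjusted p = 5.0e-08), and the protease gene Tll1 had 2.18 (SE 0.24, adjusted p = 1.3e-06) from a low level of 0.624 CPM at the WT median. Itgb6, a chain of another TGF-β activating integrin, was lower at -1.07 (SE 0.30, adjusted p = 0.0081). Of 4 genes of elastin receptors 2 were higher, Lgals3, which encodes galectin-3 (log2 fold change 1.19, SE 0.20), and Ctsa, which encodes the protective protein of the receptor complex (log2 fold change 0.30, SE 0.05). The span of Ctsa overlaps Neurl2 and Pltp, which makes the smaller change uncertain.

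**Figure D5:**
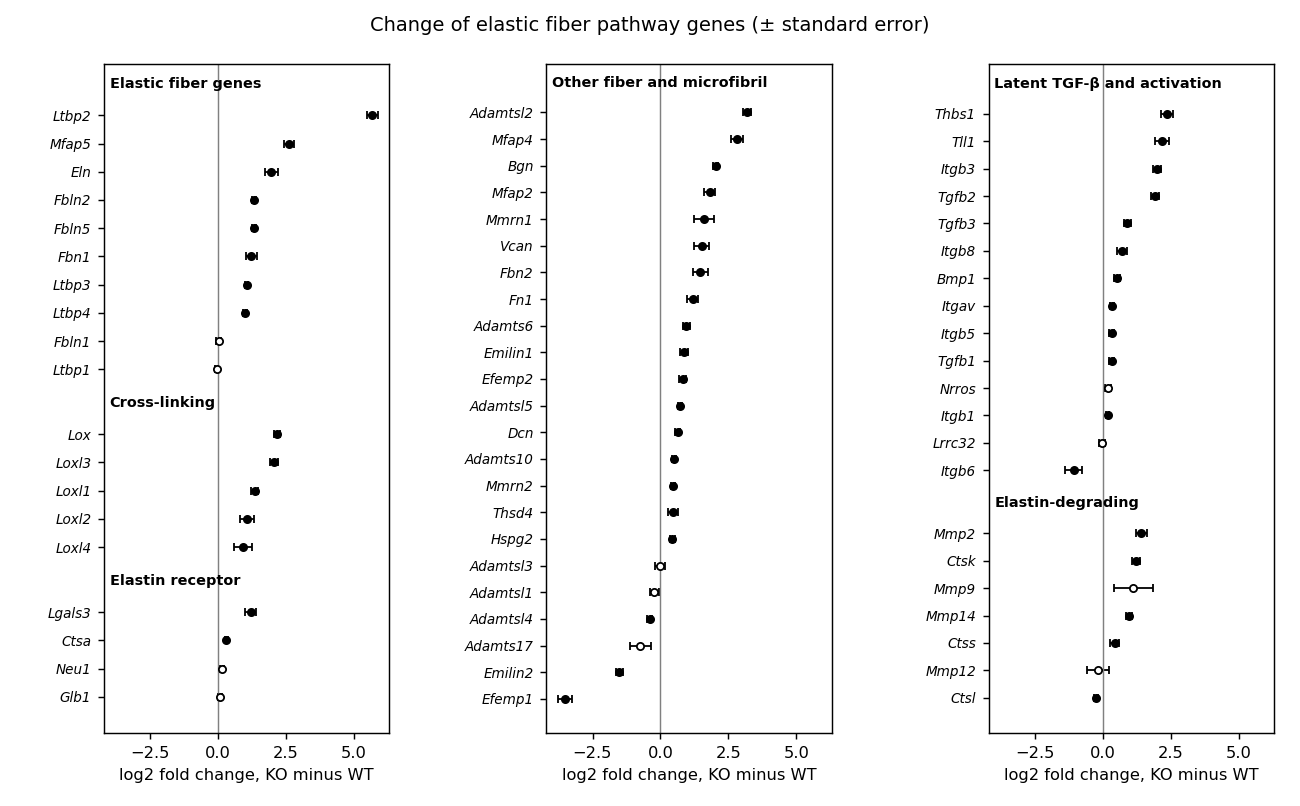
Log2 fold change (KO minus WT) with its standard error for the 10 genes and the tested genes of the accessory lists; filled points had an adjusted p under 0.05 and open points did not. Most points lie right of 0, Ltbp2 lies farthest right at 5.67, and Efemp1 farthest left at -3.52.

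Since these genes are expressed by cells of the stroma, markers of the cell types of the heart are given beside them. In RNA of whole tissue, fewer or more cells of a type and less or more RNA per cell cannot be told apart. The summed level of 8 fibroblast markers was 2551 to 3241 CPM in WT and 3134 to 3839 CPM in KO, with overlap. Of the 8, 5 were higher (Col1a1, Lum, Pdgfra, Dcn and Tcf21) and 2 lower (Dpt and Gsn, the highest of the 8), and Gsn and Dcn made up 72.0% to 87.2% of the sum. Markers of activated fibroblasts summed to 145 to 205 CPM in WT and 417 to 921 CPM in KO without overlap, with Acta2 the most abundant in WT (mean 104 CPM, against 44.3 CPM for Postn) and Postn in KO, and 4 of 6 in the table were higher, while Acta2 was lower and Fap did not pass. Their part in the result was not tested.

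Divided by the fibroblast marker sum of the same heart, 7 of the 10 genes still had every KO heart above every WT heart, and 0 had it below, beside 6.18% and 20.5% of all rows. Since 2 abundant genes decide that sum, it was also replaced, after the data had been seen, by Pdgfra and Tcf21, surface and nuclear markers of cardiac fibroblasts. Their sum was 77.0 to 96.2 CPM in WT and 134 to 176 CPM in KO. Pdgfra in turn decides this sum, with means of 75.6 CPM in WT and 138 CPM in KO, against 10.7 and 16.3 CPM for Tcf21. Both were among the 5 of the 8 fibroblast markers that were higher in KO. Relative to Pdgfra and Tcf21, 5 of the 10 genes stayed above without overlap, beside 1.79% of all rows. They were Ltbp2 (29.6-fold at the median), Mfap5 (3.69-fold), Eln (2.48-fold), Fbln5 (1.40-fold) and Fbln2 (1.35-fold). Fbn1, Ltbp3 and Ltbp4 overlapped at median ratios of 1.37, 1.21 and 1.13. Fbln1 and Ltbp1 lay below their WT range, at median ratios of 0.562 and 0.544, as did 62.9% of all rows.

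Smooth muscle markers, the other main source of elastin in vessel walls, summed to 242 to 356 CPM in WT and 275 to 380 CPM in KO, with overlap. Of the 6, Smtn, which had the highest mean over all hearts, and Mylk were higher and Cnn1 was lower. Myh11, the most abundant in WT, did not pass the test. The sums overlapped between genotypes for cardiomyocytes, pericytes, vessel endothelium, epicardium, macrophages, adipocytes and blood, where Myh6, Rgs5, Cdh5, Wt1, Csf1r, Cfd and Hba-a1 had the highest mean over all hearts. For cardiomyocytes the sum was 51334 to 56715 CPM in WT and 43774 to 60866 CPM in KO. All KO hearts but KO 3 lay below the WT range. For vessel endothelium it was 1399 to 1553 CPM in WT and 1485 to 1796 CPM in KO. There all KO hearts but KO 3 lay above the WT range. Within the lists of these cell types single markers moved. Of 9 cardiomyocyte markers 5 were lower, with Tnni3, Pln and Myl3 below the WT range in every KO heart, and Mybpc3 was higher. Of 6 pericyte markers Abcc9 was lower and Pdgfrb higher, both without overlap, and Rgs5 was higher with overlap. Of 7 endothelial markers 4 were higher and 1, Tek, was lower, and of 6 macrophage markers 1, Mrc1, was higher and 2, Adgre1 and Csf1r, were lower. Their part in the result was not tested. Endocardial markers summed to 123 to 194 CPM in WT and 252 to 322 CPM in KO without overlap, with Vwf highest. Of the 3 markers, Vwf and Npr3 were higher without overlap. Nfatc1 was lower with overlap (log2 fold change -0.26, SE 0.06, edgeR adjusted p = 0.0029). The part of these markers in the result was not tested. Atrial markers were near 0, at 1.53 to 3.07 CPM in WT and 3.03 to 4.50 CPM in KO, nearly all of it Myl4. Myl4, the only atrial marker tested, was higher with overlap (log2 fold change 0.72, SE 0.19, edgeR adjusted p = 0.0052). The epicardial genes other than Wt1 held at most 38 counts in a library. No marker in the table was without counts in every library.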

How the data were processed

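Poly-A RNA of the ventricular wall was sequenced, and the authors counted reads per gene with HTSeq and deposited raw counts and FPKM for each library. The submitters' notes name HISAT2 2.0.5 and mm10, but identifiers and coordinates in the table are those of C57BL/6NJ, and the strand setting is not given in the sources used here. The deposited DESeq columns (scaled group means as signal, log2 fold changes and p-values) were not used. In R 4.3.3, counts were analysed with edgeR 4.0.16 (filterByExpr, TMM, robust quasi-likelihood test), and standard errors were derived from the F statistic. Values per heart are TMM-scaled CPM. Ratios of 2 genes (log2, prior count 0.5) were compared by exact permutation tests over 11 pairs. The levels use the deposited FPKM. The script was tested on simulated data. The genes and lists were chosen with earlier results of these data known; all 10 genes were named, with up to 3 genes per direction and accessory list by smallest p, and the most abundant marker per cell type. Other genes named were chosen after their values were seen. Alternatives were other normalizations, filters and tests (DESeq2 1.42.0, limma 3.58.1), a replicate block and each library left out. Libraries of 1 genotype differed by more than counting noise (a chi-square of at least 6.99 for each degree of freedom). The p-values set the difference between genotypes against this spread between libraries. Intervals of 2 SE give the uncertainty of that difference and not the range of the hearts.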

Additional observations from a re-analysis of the deposited data

Results flagged for a closer look

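In 2 of the 20 groups of 6 hearts examined (each of the 10 genes in WT and in KO), 1 heart stood apart from the other hearts of its genotype by Dixon's criterion, where chance alone gives about 1. For Fbn1, WT 6 was at 248 CPM and the other WT hearts at 143 to 180 CPM. For Fbln5, WT 2 was at 43.4 CPM and the other WT hearts at 48.4 to 50.9 CPM.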

How the results depend on the processing

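The 8 genes called higher in KO stayed 8, and the genes called lower stayed 0, under all 22 alternatives to the test of counts (other normalizations, filters and tests, the replicate block, and each library left out). The stricter call gave 7 genes, 6 with limma on log2(FPKM + 1) or with the replicate block, and 8 without KO 1 or without KO 6. Leaving out 1 library gave log2 fold changes of 1.84 to 2.07 for Eln, 1.12 to 1.35 for Fbn1, 2.50 to 2.71 for Mfap5 and 5.57 to 5.75 for Ltbp2, which was 4.06 with limma on log2(FPKM + 1), a scale that understates low genes. The uncalled change of Fbln1 ranged from -0.038 to 0.072 and was below 0 without KO 3, KO 6, WT 1, WT 2 or WT 4 (-0.026, -0.016, -0.014, -0.038 and -0.00056). The ratio of Fbln2 to Fbln5 ranged from -0.023 to 0.070, below 0 without KO 2 (-0.0042) or KO 3 (-0.023), and the cause was not tested. The other 10 ratios kept their direction and their side of the threshold. The replicate numbers did not pair the libraries (correlations from -0.16 to 0.02, 1 of 12 libraries closest to its own number); a replicate block gave a log2 fold change of 1.20 for Fbn1 (edgeR adjusted p = 0.0115) and changed no call at 0.05 among the 10 genes. In the accessory lists the number of higher genes stayed within 16 to 17 for fiber genes, 4 to 5 for lysyl oxidases, 3 to 4 for degrading enzymes and 2 to 3 for receptors, and those for latent TGF-β did not move. With the length column in place of the deposited lengths, the levels of 8 genes were lower, most for Fbln2 (31.8 in WT, 79.3 in KO). Ltbp2 in WT rests on 31 to 55 counts per library, which limits the precision of its fold change.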
